A study of Mus musculus with 12 samples.

Results

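The genes described here encode the contractile and actin cytoskeleton machinery: actin isoforms, myosin chains and their kinase, the proteins that coat actin filaments, filament crosslinkers, filament turnover factors and LIM-domain adaptors. Of 38 gene symbols listed for these roles, 37 had a row in the table of 11022 genes and all 37 were among the 9378 genes tested. The expression of Cnn1, the smooth muscle calponin, was not analysed here. The RNA came from 3T3-L1, an established mouse preadipocyte line that stores fat once it is induced, sequenced as MARS-seq libraries, which read transcript 3′ ends and count unique molecular identifiers (UMIs).

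There were 4 groups of 3 libraries. The KO CM and WT CM groups were induced to differentiate while given filtered medium conditioned by WEP breast cancer cells, which lacked p53 in KO CM and carried it in WT CM. This medium made up an equal part of the mixture with the culture medium of each step, so both CM groups received diluted inducers. The regular group was induced without it. Induction, as the protocols give it, took 2 days with rosiglitazone at 2 µM, dexamethasone at 1 µM, insulin at 1 µg/mL and isobutylmethylxanthine at 0.5 mM, then 2 days with insulin alone, before a return to maintenance medium. The undifferentiated group was kept as preadipocytes in 10% calf serum, whereas the induced groups received 10% fetal bovine serum, so that serum and differentiation cannot be told apart. The sequenced cells themselves were labelled wild type in every group. Nothing in the labels says whether the replicates were separate cultures, so the p-values measure only the spread between libraries, which may be technical.

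Libraries held between 987496 and 2589045 UMIs. The adipocyte markers checked the labels: the summed level of 19 of them was between 12275 and 13968 TMM-scaled CPM (counts scaled by library size) in KO CM, 25437 and 25468 CPM in WT CM, 40615 and 42908 CPM in regular, and 269 and 298 CPM in undifferentiated libraries. Of 9378 genes tested, 57.6% were called in regular against undifferentiated cells, 32.6% in WT CM against regular, 43.2% in KO CM against regular and 12.5% in KO CM against WT CM, at an edgeR adjusted p under 0.05. Of the called genes, in the same order, 51.3%, 52.8%, 51.3% and 46.8% were higher, and 40.4%, 47.8%, 40.8% and 30.4% were higher with total counts as library sizes. Total counts shifted the median log2 fold change of all genes by -0.16, -0.04, -0.11 and -0.08 in these comparisons, and by -0.28 in KO CM and -0.20 in WT CM against undifferentiated cells. There, 59.5% of the called genes were higher in KO CM and 57.4% in WT CM with TMM, against 33.1% and 38.8% with total counts. WT CM replicate 3 stood apart from its group: its chi-square per gene against the other 2 libraries was 6.4, against 1.46 to 3.13 in the other 11 libraries.

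Actin filaments carry tension when nonmuscle or smooth muscle myosin II pulls on them, an activity switched on by phosphorylation of the regulatory myosin light chain through myosin light chain kinase. Preadipocytes are flat, adherent cells with stress fibres, and conversion to round, fat-filled adipocytes is known to involve loss of these fibres. Free actin monomer binds the coactivators MRTF-A and MRTF-B and keeps them out of the nucleus, so that filament assembly releases them to activate serum response factor (SRF), which binds a DNA element named the CArG box in many cytoskeletal genes.

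RefSeq promoter windows, 250 bases before to 50 bases after the start site, were matched by symbol for 34 of the 38 genes listed, Cnn1 included. A CArG box, counted only as CC, 6 bases of A or T, then GG, lay in the windows of 6 of these 34 genes, or 17.6%. The share was 1.51% of the 7562 tested genes that had such a window and 1.81% of all 27025 genes in the promoter table, with both strands searched. Sequences with a mismatch to this pattern were not counted, such as ccctatatgg in the Acta2 window. Actb, Actg2, Csrp2 and Tagln had no entry. The stretches below show the box and its neighbourhood in 5 of the 6 genes, with the box in capitals. They run 5′ to 3′ on the gene's strand in build GRCm38.p6. In Myl6, whose window overlaps an exon of a longer Myl6 transcript, the box read CCTTATATGG and began 50 bases before the start site.
Cnn2, chr10:79988524-79988573, plus strand, box 56 bases before the start: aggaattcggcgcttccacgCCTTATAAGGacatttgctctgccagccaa
Lima1, chr15:99820167-99820216, minus strand, box 47 bases before the start: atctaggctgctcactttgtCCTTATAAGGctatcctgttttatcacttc
Vcl, chr14:20929151-20929200, plus strand, box 227 bases before the start: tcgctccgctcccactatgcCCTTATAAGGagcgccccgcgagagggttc
Actg1, chr11:120348556-120348605, minus strand, box 90 bases before the start: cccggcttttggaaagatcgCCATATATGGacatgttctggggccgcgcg
Myl9, chr2:156775283-156775332, plus strand, box 161 bases before the start: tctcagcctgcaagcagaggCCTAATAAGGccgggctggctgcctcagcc

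The boxes of Cnn2, Lima1 and Vcl had the same letters. The stretches of Cnn2, Vcl, Actg1 and Myl9 overlapped no gene of GENCODE M21, and that of Lima1 lay outside exons, within the span of Lima1 and of Gm17057 on the opposite strand. The 250 bases before the start site of Cnn2, the gene with the largest difference between KO CM and WT CM among those described here, occupy chr10:79988350-79988599 on the plus strand and are shown for wider context. Of these bases, 16 lie in a Cnn2 exon of GENCODE M21, which starts Cnn2 further upstream.
Cnn2 upstream: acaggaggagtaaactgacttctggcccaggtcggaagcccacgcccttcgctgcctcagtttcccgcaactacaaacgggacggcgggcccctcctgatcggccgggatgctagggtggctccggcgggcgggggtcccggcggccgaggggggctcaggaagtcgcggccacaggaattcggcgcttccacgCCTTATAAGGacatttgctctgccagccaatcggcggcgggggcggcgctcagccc

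In regular differentiation, 33 of the 37 genes fell and 3 rose against undifferentiated cells, where 28.0% of all tested genes fell and 29.6% rose. The genes that rose were Mylk, Myl6 and Myh10, and Cfl2 did not pass the test in any comparison. The median log2 fold change of the 37 was -1.34, beside -0.01 over all genes tested. With conditioned medium the genes were higher than in regular differentiation: 30 rose and 1 fell in KO CM, where 22.2% of all tested genes rose and 21.0% fell, and 22 rose and 1 fell in WT CM, where 17.2% rose and 15.4% fell. Myh10 was the gene that fell in both. The medians were 0.88 in KO CM and 0.54 in WT CM, beside -0.00076 and 0.01 over all genes. Among the 24 genes with a mean of at least 100 CPM, 23 fell in regular differentiation, 22 rose in KO CM and 18 rose in WT CM, beside 33.3%, 35.1% and 28.0% of all tested genes at that level. Against the undifferentiated level, 2 genes, Mylk and Myl6, were higher and 25 lower in KO CM (background 26.0% and 17.7%), and 1, Mylk, was higher and 30 lower in WT CM (background 27.9% and 20.7%).

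KO CM exceeded WT CM in 14 of the 37 genes, beside 5.86% of all tested genes, and all 14 were among the 24 abundant genes, a level at which 15.0% of all tested genes were higher. They were Actb, Cnn2, Cnn3, Myl12a, Myh9, Tpm1, Tpm3, Tpm4, Zyx, Actn1, Flnc, Cfl1, Pfn1 and Lima1. No gene of the 37 was called lower by edgeR or DESeq2, beside 6.65% of all tested genes by edgeR, and 1, Myh10, was lower at an unadjusted p under 0.05. Without WT CM replicate 3 the counts were 14 and 0 in KO CM against WT CM, and 21 and 1 in WT CM against regular. Without WT CM replicate 2, 9 genes were higher in KO CM than in WT CM, the calls lost being those of Myh9, Tpm4, Flnc, Cfl1 and Lima1.

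The 37 genes together took 1.53 ± 0.0361% of UMIs in KO CM, 1.26 ± 0.0493% in WT CM, 0.838 ± 0.0274% in regular and 2.36 ± 0.104% in undifferentiated libraries (SD, n = 3 each). The 4 groups did not overlap in this share. As these are bulk libraries, fewer cells of a kind and less RNA per cell cannot be told apart. Summed adipocyte markers ran in the opposite order in the differentiated groups, as given above, and the summed level of 13 preadipocyte and progenitor markers was 1889 CPM (range 1817 to 2009.7) in KO CM, 1398 CPM (1347 to 1426) in WT CM, 386 CPM (360.4 to 417) in regular and 1229 CPM (1212 to 1243) in undifferentiated libraries. Of the 12 progenitor markers tested, 4 were called higher and 2 lower in KO CM than in undifferentiated cells, beside 26.0% and 17.7% of all tested genes. In WT CM 3 were higher and 6 lower than in undifferentiated cells, beside 27.9% and 20.7%. Ly6a and Thy1, at 631 and 562 CPM in KO CM, supplied much of the progenitor sum. The part of cell state or cell mixture in the actin gene differences was not tested.

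**Figure D1:**
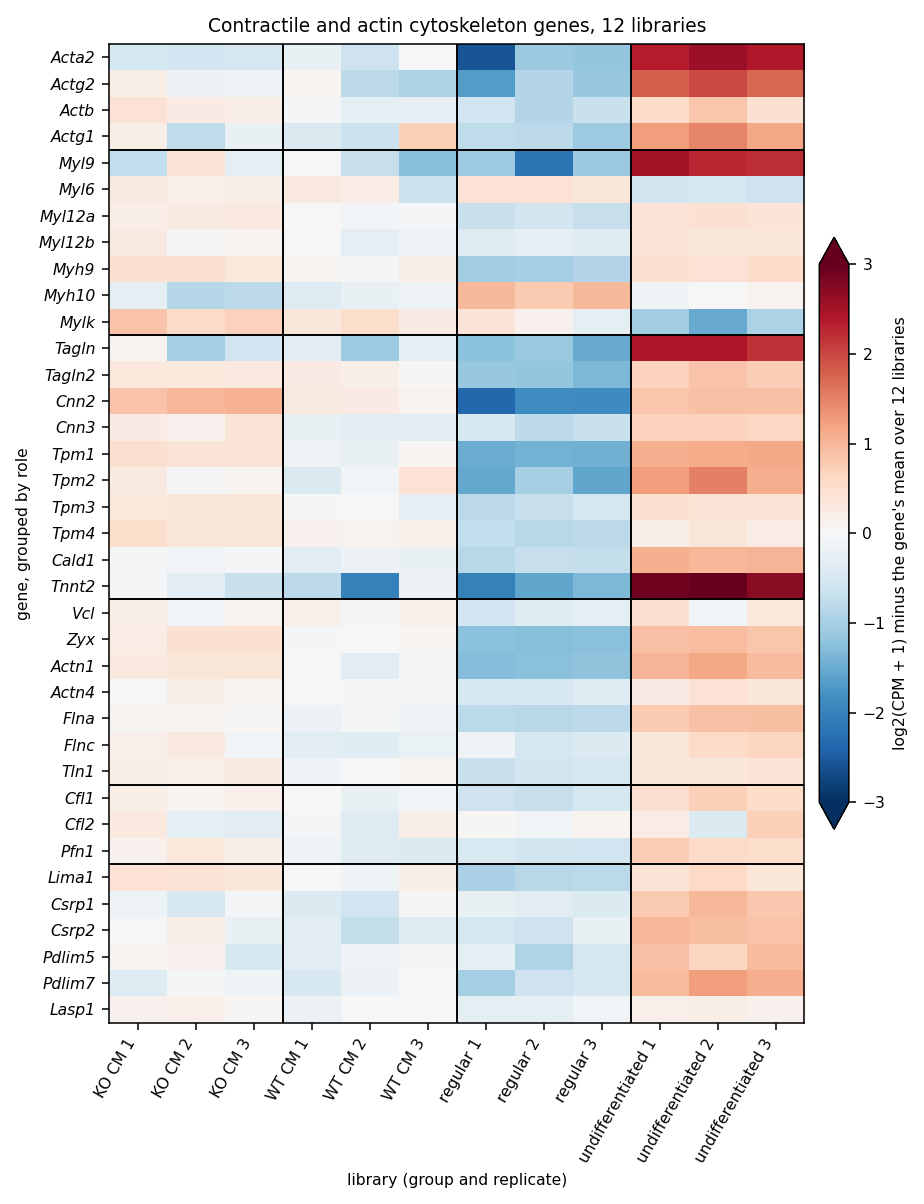
Heat map of the 37 genes (rows, grouped by role) in the 12 libraries (columns, by group and replicate), coloured by log2(CPM + 1) minus the gene's mean over all libraries. Most rows are red in undifferentiated libraries and blue in regular libraries, whereas Mylk, Myl6 and Myh10 are higher in regular than in undifferentiated libraries.

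All 4 actin isoforms fell in regular differentiation, beside 28.0% of all tested genes. Actb, the abundant cytoplasmic beta-actin, measured 5211, 4591 and 4435 CPM in KO CM, 3735, 3122 and 3271 CPM in WT CM, 2533, 2101 and 2407 CPM in regular and 5624, 6828 and 5298 CPM in undifferentiated libraries. No library of one group reached the range of another. Actb was higher in KO CM than in WT CM (log2 fold change 0.49 ± 0.09 SE, adjusted p = 0.000297) and remained below the undifferentiated level (-0.32 ± 0.09, adjusted p = 0.00517), a call that was lost without undifferentiated replicate 2.

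Actg1, the cytoplasmic gamma-actin, measured 89.8, 46.6 and 68.8 CPM in KO CM, 59.1, 50.7 and 131 CPM in WT CM, 46.4, 45.8 and 36.8 CPM in regular and 191, 221 and 179 CPM in undifferentiated libraries. It fell in regular differentiation (-2.19 ± 0.36, adjusted p = 0.000712), while WT CM replicate 3 held far more than the other WT CM libraries. Actg1 did not pass the test in either CM group against regular (0.68 ± 0.44 in KO CM and 0.97 ± 0.39 in WT CM, or 0.35 in WT CM without replicate 3).

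The smooth muscle actins were low throughout. Acta2, the alpha-actin typical of smooth muscle and myofibroblasts, measured 6.91, 6.65 and 7.03 CPM in KO CM, 8.82, 6.41 and 10.5 CPM in WT CM, 0.91, 4.27 and 4.16 CPM in regular and 57.6, 66.3 and 59.4 CPM in undifferentiated libraries. Actg2, the gamma-actin of enteric smooth muscle, measured 5.92, 4.43 and 4.69 CPM in KO CM, 5.43, 2.56 and 2.19 CPM in WT CM, 0.91, 2.33 and 1.78 CPM in regular and 20.3, 23.3 and 19.4 CPM in undifferentiated libraries. Every induced library lay far below every undifferentiated one for both genes. Acta2 was lower than in undifferentiated cells by a log2 fold change of -3.13 ± 0.26 in KO CM (adjusted p = 6.85e-14), -2.78 ± 0.22 in WT CM (adjusted p = 5.84e-15) and -4.08 ± 0.26 in regular (adjusted p = 3.52e-18). Against regular, Acta2 was called higher in WT CM (1.3 ± 0.37, adjusted p = 0.00482), but without WT CM replicate 3 the adjusted p was 0.0561. Actg2 was called higher than regular in KO CM (1.39 ± 0.56, adjusted p = 0.0416), a call that was lost under most alternatives, including the omission of any KO CM library.

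**Figure D2:**
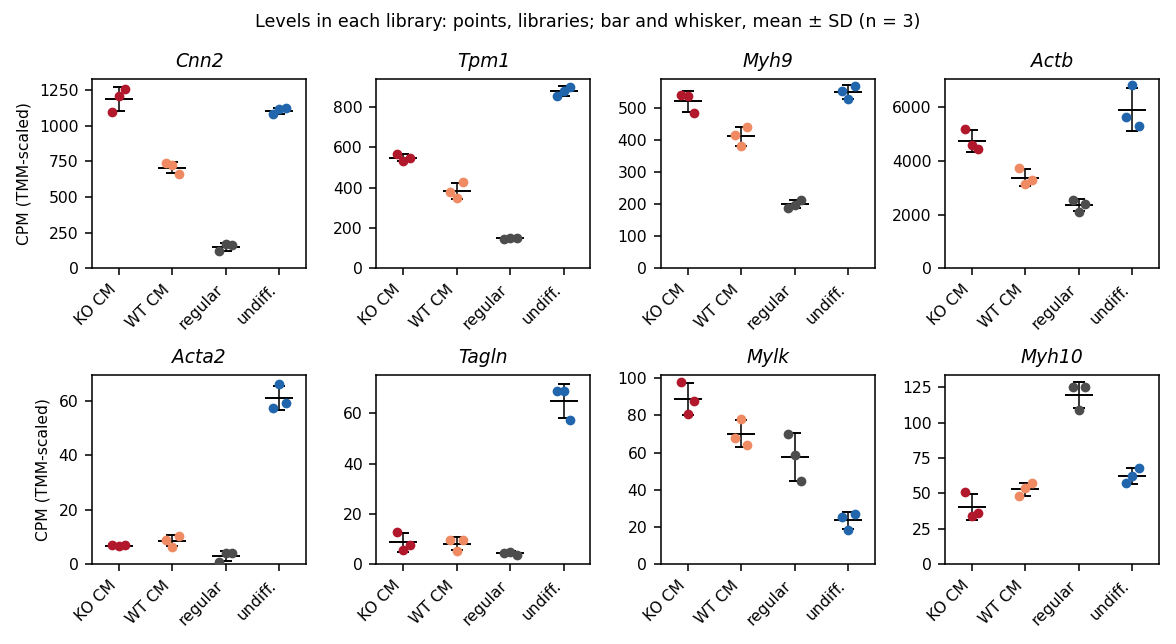
TMM-scaled CPM of 8 genes in each library (points), with the mean and SD of the 3 libraries of a group; groups run from KO CM and WT CM to regular and undifferentiated. Cnn2 and Myh9 in KO CM sit near their undifferentiated levels (1187 and 522 CPM against 1105 and 552 CPM), whereas Acta2 and Tagln stay far below theirs, Mylk is lowest in undifferentiated libraries and Myh10 is highest in regular libraries.

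Myosin genes split by chain. Myh9, the heavy chain of nonmuscle myosin IIA, measured 543, 538 and 485 CPM in KO CM, 417, 381 and 441 CPM in WT CM, 189, 197 and 214 CPM in regular and 556, 529 and 571 CPM in undifferentiated libraries. Myh10, the heavy chain of nonmuscle myosin IIB, measured 51.3, 34.4 and 35.9 CPM in KO CM, 48.2, 53.9 and 57.1 CPM in WT CM, 125, 109 and 125 CPM in regular and 57.1, 62.1 and 68.1 CPM in undifferentiated libraries. The 2 heavy chains moved in opposite directions in 3 comparisons. Myh9 fell by 1.46 on the log2 scale in regular against undifferentiated cells (SE 0.09, adjusted p = 5.52e-19) while Myh10 rose by 0.92 (SE 0.13, adjusted p = 2.24e-08). Against regular, Myh9 rose by 1.38 ± 0.09 in KO CM (adjusted p = 1.58e-17) and by 1.04 ± 0.09 in WT CM (adjusted p = 2.04e-13). Myh10 fell by 1.55 in KO CM (SE 0.15, adjusted p = 3.85e-12) and by 1.15 in WT CM (SE 0.13, adjusted p = 4.85e-10). As a share of the UMIs of both genes, Myh10 made up 7.18 ± 1.34% in KO CM, 11.4 ± 1.00% in WT CM, 37.4 ± 2.08% in regular and 10.2 ± 0.735% in undifferentiated libraries. Myh10 was 0.40 lower in KO CM than in WT CM on the log2 scale, which did not pass the test (SE 0.17, adjusted p = 0.112).

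Mylk, the kinase that phosphorylates the regulatory light chains of smooth muscle and nonmuscle myosin, measured 97.7, 80.9 and 87.5 CPM in KO CM, 67.9, 78.2 and 64.1 CPM in WT CM, 70.1, 58.6 and 44.5 CPM in regular and 25.4, 18.3 and 27.1 CPM in undifferentiated libraries. Its undifferentiated libraries were the lowest of all 12. Mylk exceeded the undifferentiated level by 1.88 ± 0.18 in KO CM (adjusted p = 2.03e-12), 1.53 ± 0.17 in WT CM (adjusted p = 2.19e-10) and 1.24 ± 0.18 in regular (adjusted p = 5.73e-08), and was called higher than regular in KO CM (0.64 ± 0.15, adjusted p = 0.00055) and not in WT CM (0.29 ± 0.15, adjusted p = 0.13). The difference between KO CM and WT CM did not pass the test (0.35 ± 0.15, adjusted p = 0.126).

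Light chains differed in kind. Myl9, the regulatory chain typical of smooth muscle, measured 4.93, 12.2 and 7.03 CPM in KO CM, 8.82, 5.13 and 3.07 CPM in WT CM, 3.64, 1.16 and 3.56 CPM in regular and 54.8, 46.6 and 44.5 CPM in undifferentiated libraries. It fell in regular differentiation (-4.27 ± 0.32, adjusted p = 8.45e-16) and stayed 2.62 lower than undifferentiated in KO CM (SE 0.29, adjusted p = 2.32e-10). Myl12a, a regulatory chain of nonmuscle myosin, averaged 1365 ± 56.2 CPM in KO CM, 1111 ± 21.7 CPM in WT CM, 732 ± 37.1 CPM in regular and 1536 ± 35.2 CPM in undifferentiated libraries. Its KO CM level was not called different from the undifferentiated one (-0.17 ± 0.08, adjusted p = 0.0682). Myl12b, its close relative, rose in KO CM against regular (0.44 ± 0.10) and missed the threshold in WT CM (0.20 ± 0.09, adjusted p = 0.0942).

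Myl6, the essential light chain shared by smooth muscle and nonmuscle myosin, measured 478, 443 and 459 CPM in KO CM, 489, 462 and 254 CPM in WT CM, 539, 539.6 and 503 CPM in regular and 271, 282 and 260 CPM in undifferentiated libraries. Of the induced libraries, WT CM replicate 3 alone lay below the undifferentiated range. Myl6 rose in regular differentiation (0.96 ± 0.21, adjusted p = 0.00303). In KO CM it exceeded undifferentiated cells by 0.77 ± 0.21 (adjusted p = 0.0156), a call that was lost with total counts as library sizes and when any of 3 libraries was left out. In WT CM against undifferentiated cells it reached 0.56 ± 0.21 (adjusted p = 0.0506) with all libraries and 0.82 (adjusted p = 5.49e-12) without WT CM replicate 3.

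Of the 10 tested genes for proteins that coat or regulate the thin filament, 10 fell in regular against undifferentiated cells (median log2 fold change -2.27). Of these, 9 rose in KO CM (median 1.31) and 8 in WT CM (median 1.15) against regular. Over all tested genes, 28.0% fell in regular against undifferentiated cells, and 22.2% rose in KO CM and 17.2% in WT CM against regular. The medians over all tested genes were -0.01, -0.00076 and 0.01 in these comparisons. Cnn2, the nonmuscle calponin that binds actin and restrains myosin, measured 1093, 1209 and 1258 CPM in KO CM, 736, 721 and 659 CPM in WT CM, 118, 167 and 165 CPM in regular and 1079, 1115 and 1121 CPM in undifferentiated libraries. It fell by 2.86 on the log2 scale in regular differentiation (SE 0.10, adjusted p = 9.17e-28). Cnn2 rose by 2.97 ± 0.10 in KO CM (adjusted p = 1.04e-27) and by 2.22 ± 0.10 in WT CM (adjusted p = 4.93e-23) against regular, and was 0.75 ± 0.09 higher in KO CM than in WT CM (adjusted p = 2.94e-08). Its KO CM level was not called different from the undifferentiated one (0.10 ± 0.09, adjusted p = 0.367, and -0.17 with total counts as library sizes).

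Cnn3, the acidic calponin, measured 179, 164 and 198 CPM in KO CM, 128, 119.9 and 121 CPM in WT CM, 108, 86.6 and 93.8 CPM in regular and 243, 245 and 231 CPM in undifferentiated libraries. The 4 groups did not overlap. Cnn3 was 0.56 ± 0.10 higher in KO CM than in WT CM (adjusted p = 9.64e-05), and its rise in WT CM over regular (0.37 ± 0.11, adjusted p = 0.00496) was lost without regular replicate 2. Cnn2 supplied 86.8 ± 1.1% of the UMIs of both calponins in KO CM, 85.2 ± 0.609% in WT CM, 60.6 ± 7.33% in regular and 82.2 ± 0.673% in undifferentiated libraries.

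The transgelins differed in level and in size of change. Tagln, transgelin or SM22 alpha, a marker of smooth muscle, measured 12.8, 5.54 and 7.81 CPM in KO CM, 9.5, 5.13 and 9.66 CPM in WT CM, 4.55, 5.05 and 3.56 CPM in regular and 69, 69.1 and 57.3 CPM in undifferentiated libraries. Tagln2, its widely expressed relative, measured 486, 493 and 483 CPM in KO CM, 468, 442 and 404 CPM in WT CM, 178, 175 and 154 CPM in regular and 632, 707 and 652 CPM in undifferentiated libraries. Against undifferentiated cells, Tagln stayed lower by 2.88 in KO CM (SE 0.25, adjusted p = 2.19e-13) whereas Tagln2 was lower by 0.44 (SE 0.09, adjusted p = 3.13e-05). Tagln2 rose by 1.53 ± 0.09 in KO CM and 1.37 ± 0.09 in WT CM against regular, with no call between KO CM and WT CM (0.16 ± 0.09, adjusted p = 0.273). The call of Tagln in KO CM against regular (0.96 ± 0.40, adjusted p = 0.0495) was lost under 10 of the alternatives.

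Tropomyosins wrap along the actin filament and set which proteins bind it. Tpm1 measured 567, 533 and 545 CPM in KO CM, 378, 347 and 427 CPM in WT CM, 145, 152 and 149 CPM in regular and 854, 880.3 and 902 CPM in undifferentiated libraries. Tpm2 measured 66.1, 53.2 and 57 CPM in KO CM, 40, 51.3 and 74.2 CPM in WT CM, 18.2, 26.8 and 17.8 CPM in regular and 131, 157 and 116 CPM in undifferentiated libraries. Tpm1 separated all 4 groups, while the Tpm2 ranges of KO CM and WT CM overlapped. Tpm1 was 0.51 ± 0.09 higher in KO CM than in WT CM (adjusted p = 1.92e-05), and 0.60 higher without WT CM replicate 3. Tpm2 showed no call between them (0.05 ± 0.20, adjusted p = 0.922, and 0.36 without that library, adjusted p = 0.253).

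Tpm3 and Tpm4, which encode cytoskeletal tropomyosins, rose in both CM groups and were not called different in KO CM from undifferentiated cells (-0.10 ± 0.09 and 0.17 ± 0.09, with Tpm4 at -0.11 when total counts were the library sizes). Tpm1 formed 39.5 ± 0.42% of the UMIs of the 4 tropomyosin genes in KO CM, 36.4 ± 2.63% in WT CM, 28.1 ± 0.652% in regular and 49.8 ± 1.48% in undifferentiated libraries. Tpm4 formed 34.5 ± 1.19% in KO CM, 37.4 ± 0.834% in WT CM, 39.5 ± 2.1% in regular and 24.2 ± 1.03% in undifferentiated libraries. The counts do not separate the tropomyosin isoforms that each gene makes.

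**Figure D3:**
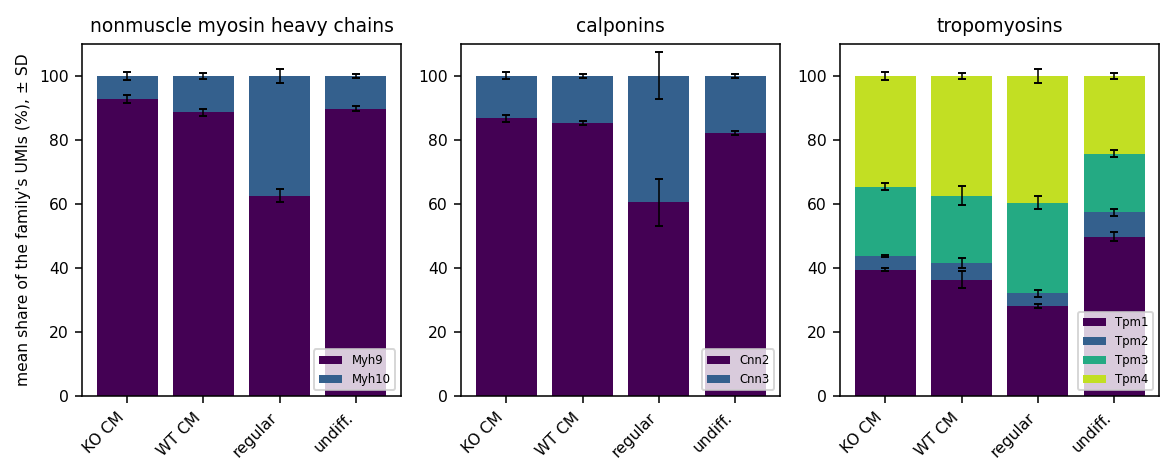
Mean share of each gene in the UMIs of its family, ± SD over 3 libraries, as stacked bars for KO CM, WT CM, regular and undifferentiated groups. Regular libraries have the largest Myh10 share (37.4%), the smallest Cnn2 share (60.6%) and the smallest Tpm1 share (28.1%).

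Cald1, caldesmon, which inhibits the myosin ATPase on actin, averaged 211 CPM in KO CM, 187 CPM in WT CM, 131 CPM in regular and 452 CPM in undifferentiated libraries. It stayed 1.1 lower in KO CM than in undifferentiated cells (SE 0.09, adjusted p = 2.03e-14). Tnnt2, cardiac troponin T, measured 2.96, 2.22 and 1.56 CPM in KO CM, 1.36, 0 and 2.63 CPM in WT CM, 0, 0.388 and 0.594 CPM in regular and 29.4, 42.3 and 25.6 CPM in undifferentiated libraries. The regular libraries held 2 Tnnt2 UMIs in all, against 162 in undifferentiated libraries. Relative to TMM-scaled library sizes the ratio was 0.0118, with a 95% exact interval of 0.00142 to 0.0435 that covers counting error only. Tnnt2 showed no call in KO CM against regular (adjusted p = 0.0558), with 7 against 2 UMIs. The ratio there, relative to TMM-scaled library sizes, was 5.87 with a 95% exact interval of 1.12 to 57.9, again for counting error only.

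Crosslinkers and adhesion-linked proteins fell in all 7 cases in regular differentiation, and 7 rose in KO CM and 6 in WT CM against regular. The shares over all tested genes were 28.0% lower in regular differentiation, 22.2% higher in KO CM and 17.2% higher in WT CM. Zyx, zyxin, a LIM protein recruited to stressed filaments and adhesions, measured 823, 967 and 968 CPM in KO CM, 679, 696 and 736 CPM in WT CM, 301, 291 and 295 CPM in regular and 1311, 1353 and 1261 CPM in undifferentiated libraries. Actn1, the crosslinker alpha-actinin 1, measured 360.1, 378 and 373 CPM in KO CM, 288, 233 and 278 CPM in WT CM, 118, 122 and 125 CPM in regular and 590.1, 658 and 568 CPM in undifferentiated libraries. Both genes separated all 4 groups, in the order regular, WT CM, KO CM and undifferentiated from low to high. Zyx was 0.39 ± 0.08 higher in KO CM than in WT CM (adjusted p = 0.00064) and Actn1 0.47 ± 0.09 higher (adjusted p = 0.000171).

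Flnc, the filamin most abundant in muscle, measured 131, 146 and 112 CPM in KO CM, 93, 91.7 and 103 CPM in WT CM, 111, 81.9 and 89.7 CPM in regular and 153, 176 and 187 CPM in undifferentiated libraries. WT CM and regular overlapped (0.06 ± 0.12, adjusted p = 0.731), whereas KO CM was higher than WT CM (0.42 ± 0.12, adjusted p = 0.0162), a call that was lost with total counts, with DESeq2 and when any of 4 libraries was left out. Flna, the ubiquitous filamin, averaged 539 CPM in KO CM, 474 CPM in WT CM, 292 CPM in regular and 928 CPM in undifferentiated libraries. It showed no call between KO CM and WT CM (0.19 ± 0.08, adjusted p = 0.144). Actn4, Tln1 and Vcl, which encode alpha-actinin 4, talin 1 and vinculin, were also called in neither direction between KO CM and WT CM (0.08 ± 0.09, 0.19 ± 0.09 and -0.01 ± 0.12). Vcl and Tln1 in KO CM were not called different from undifferentiated cells (-0.21 ± 0.12 and -0.17 ± 0.09).

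**Figure D4:**
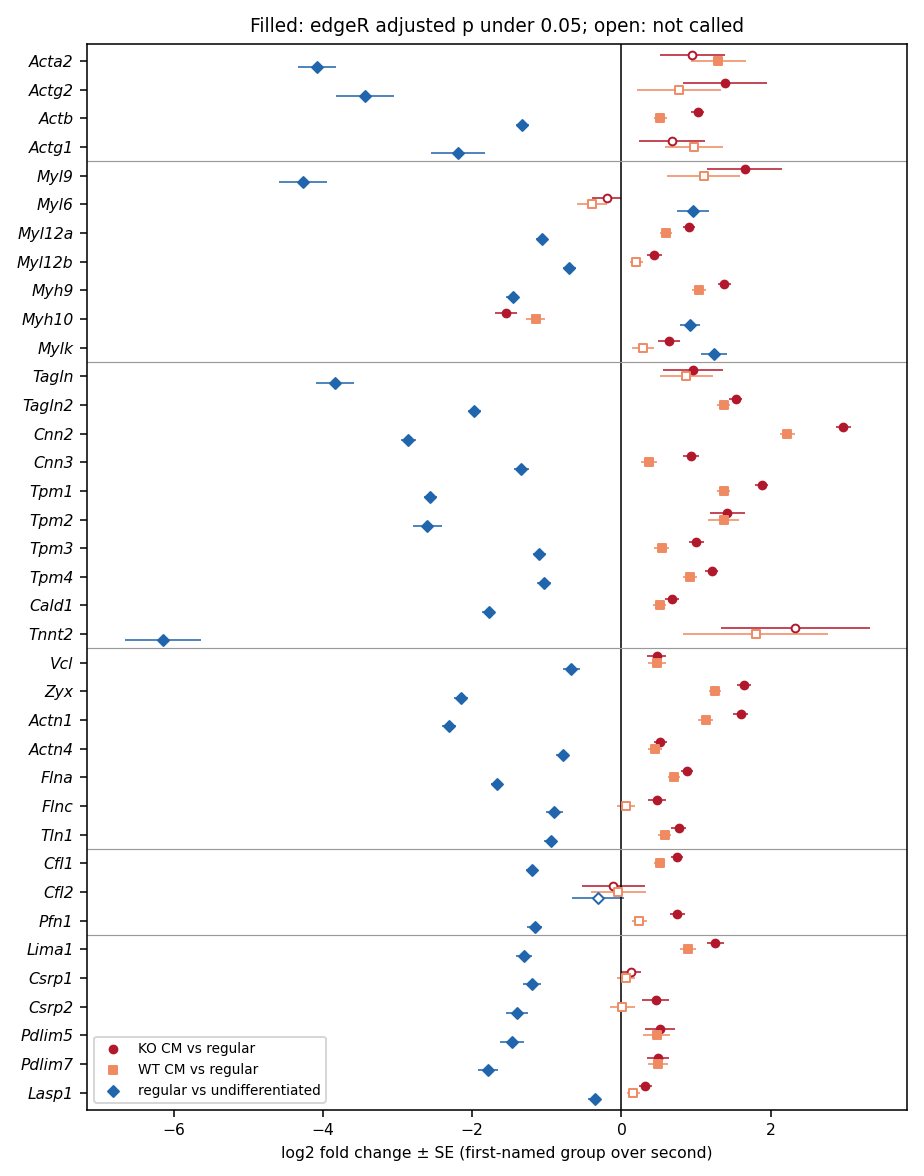
Log2 fold change ± SE of the 37 genes in KO CM against regular, WT CM against regular and regular against undifferentiated cells, with filled symbols for an edgeR adjusted p under 0.05 and open symbols otherwise. Most genes lie left of 0 in regular against undifferentiated cells and right of 0 in both CM comparisons, where Cnn2 reaches 2.97 in KO CM and Myh10 lies at -1.55.

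Of the 3 filament turnover factors, 2 fell in regular against undifferentiated cells, and 2 rose in KO CM and 1 in WT CM against regular. The shares over all tested genes were 28.0%, 22.2% and 17.2%, and nothing is drawn from so few genes beside them. Pfn1, profilin 1, which delivers actin monomers to growing filaments, measured 187, 213 and 192 CPM in KO CM, 155, 131 and 128 CPM in WT CM, 124, 116 and 112 CPM in regular and 287, 252 and 244 CPM in undifferentiated libraries. It was 0.52 ± 0.10 higher in KO CM than in WT CM (adjusted p = 0.00027) and missed the threshold in WT CM against regular (0.24 ± 0.10, adjusted p = 0.0743, or 0.0465 without WT CM replicate 3). Cfl1, cofilin 1, which severs filaments, fell by 1.2 in regular differentiation (SE 0.08, adjusted p = 1.02e-17) and rose by 0.74 ± 0.08 in KO CM and 0.51 ± 0.08 in WT CM against regular. Its excess in KO CM over WT CM (0.23 ± 0.08, adjusted p = 0.0415) was lost under 8 of the alternatives. Cfl2, the muscle cofilin, ranged from 4.94 to 12.3 CPM over all 12 libraries.

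Among the LIM-domain and actin-bundling adaptors, Lima1, also called EPLIN, a filament-stabilising protein, averaged 191 CPM in KO CM, 147 CPM in WT CM, 78.8 CPM in regular and 198 CPM in undifferentiated libraries. It rose by 1.26 ± 0.11 in KO CM against regular (adjusted p = 2.39e-13) and was not called different there from undifferentiated cells (-0.05 ± 0.10, adjusted p = 0.73). Csrp2, a cysteine and glycine-rich LIM protein of smooth muscle, measured 48.3, 55.4 and 40.6 CPM in KO CM, 38, 28.9 and 36.9 CPM in WT CM, 32.8, 30.7 and 41 CPM in regular and 96.6, 90.3 and 87 CPM in undifferentiated libraries. WT CM and regular overlapped, and the call in KO CM against regular (0.46 ± 0.18, adjusted p = 0.0336) was lost under 7 of the alternatives. Csrp1, its relative, showed no call in either CM group against regular (0.13 ± 0.13 in KO CM and 0.06 ± 0.12 in WT CM) and stayed below undifferentiated cells (-1.07 ± 0.12 in KO CM and -1.14 ± 0.12 in WT CM). Pdlim7 and Pdlim5, PDZ and LIM proteins of stress fibres, rose by 0.49 ± 0.15 and 0.52 ± 0.20 in KO CM against regular, and the Pdlim5 call was lost under 6 of the alternatives. In WT CM against regular, Pdlim7 (0.49 ± 0.14) lost its call without WT CM replicate 3 (adjusted p = 0.0807). Lasp1, a LIM and SH3 protein of actin assembly sites, had the smallest called fall in regular differentiation (-0.36 ± 0.09, adjusted p = 0.000566).

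Set against undifferentiated cells, the genes of KO CM ranged from called rises, in Mylk (1.88) and Myl6 (0.77), through no call to large falls. The 10 not called in KO CM against undifferentiated cells were Myl12a, Myh9, Cnn2, Tpm3, Tpm4, Vcl, Tln1, Cfl2, Lima1 and Lasp1, with log2 fold changes from -0.43 to 0.17. Tnnt2, Acta2, Tagln, Myl9 and Actg2 had the largest falls there, from -3.82 to -2.04. With total counts as library sizes 32 genes were called lower in KO CM than in undifferentiated cells, in place of 25. The share of all tested genes called lower was then 32.4%, in place of 17.7%.

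Markers of other cell types outside the 37 genes were summed per library. The summed level of the 8 of 15 smooth muscle markers in the table ranged from 161 to 166 CPM in KO CM, 177 to 188 CPM in WT CM, 170 to 181 CPM in regular and 97.2 to 101 CPM in undifferentiated libraries. For striated muscle, 8 of 26 markers were in the table and summed to 72.7 to 84.2 CPM in KO CM, 69.9 to 80.8 CPM in WT CM, 65.3 to 92.8 CPM in regular and 44.5 to 55.0 CPM in undifferentiated libraries. Des, desmin, belongs to both lists and made up much of both sums, at 48.4 ± 5.94 CPM in KO CM, 49.8 ± 7.11 CPM in WT CM, 61.4 ± 13.1 CPM in regular and 30.1 ± 6.49 CPM in undifferentiated libraries. The sums hide members that moved apart. Tnnt3, fast skeletal troponin T, averaged 17.5 ± 3.77 CPM in KO CM, 8.66 ± 1.39 CPM in WT CM and 1.95 ± 0.771 CPM in regular libraries. It rose against regular in KO CM (3.18 ± 0.42, adjusted p = 2.27e-08) and in WT CM (2.14 ± 0.45, adjusted p = 0.000173). Tnni2, fast skeletal troponin I, rose by 3.09 ± 0.75 in KO CM and 3.59 ± 0.64 in WT CM against regular. Its levels were low, at 5.63 ± 2.91 CPM in KO CM and 7.92 ± 2.31 CPM in WT CM. Tnni2 was called lower in regular than in undifferentiated cells. Of the 26 striated muscle markers, 3 were tested. Of the 6 tested smooth muscle markers, 3 rose and 2 fell in KO CM against regular, and 3 rose and 1 fell in WT CM. Over all tested genes, 22.2% rose and 21.0% fell in KO CM, and 17.2% rose and 15.4% fell in WT CM. Synm had the largest rise in both CM groups and Myh11 the largest fall in KO CM, where they averaged 11.5 and 2.03 CPM. Smtn, smoothelin, rose in both CM groups against regular (0.83 ± 0.20 in KO CM and 0.86 ± 0.19 in WT CM). Mcam, an adhesion molecule, fell (-1.6 ± 0.21 in KO CM and -0.56 ± 0.16 in WT CM). Markers of activated fibroblasts, 12 of 15 in the table and including collagens and fibronectin, summed to 23671 ± 109 CPM in KO CM, 18286 ± 850.3 CPM in WT CM, 7928 ± 238 CPM in regular and 20311 ± 899.8 CPM in undifferentiated libraries. Of the 11 that were tested, 9 rose in KO CM against regular, beside 22.2% of all tested genes. Against undifferentiated cells 5 were higher and 4 lower in KO CM, beside 26.0% and 17.7% of all tested genes. Col1a2 and Col3a1, at 13085 and 4961 CPM in KO CM, made up most of the sum there. Macrophage markers (4 of 14 in the table) summed to 84.2 to 108 CPM in KO CM, 50.5 to 63.1 CPM in WT CM, 20 to 28.5 CPM in regular and 21.2 to 27.1 CPM in undifferentiated libraries. Most of that sum was Cd14, a lipopolysaccharide coreceptor, at 83.7 ± 9.11 CPM in KO CM, 44.5 ± 5.98 CPM in WT CM and 14.5 ± 5.21 CPM in regular libraries. Epithelial keratins (3 of 13 epithelial markers) summed to 5.54 to 14.8 CPM in KO CM, 14.5 to 23.8 CPM in WT CM, 45.5 to 55.8 CPM in regular and 3.58 to 6.22 CPM in undifferentiated libraries. Egfl7, the 1 of 10 endothelial markers in the table, reached at most 14 CPM in any library. The part of other cell types in the actin gene results was not tested.

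Other genes of the actin pathway were examined beside the 37. Mrtfa, the coactivator MRTF-A, averaged 87.4 ± 14.8 CPM in KO CM, 57.6 ± 4.04 CPM in WT CM, 32.5 ± 1.16 CPM in regular and 83.5 ± 6.71 CPM in undifferentiated libraries. It was 0.60 ± 0.14 higher in KO CM than in WT CM (adjusted p = 0.00204). Srf averaged 41.1 ± 3.84 CPM in KO CM, 30.5 ± 6.64 CPM in WT CM, 25.4 ± 2.02 CPM in regular and 40.5 ± 7.89 CPM in undifferentiated libraries. Srf rose in KO CM against regular (0.70 ± 0.20, adjusted p = 0.00432).

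Over all tested genes, 29.6% rose and 28.0% fell in regular against undifferentiated cells. Against regular, 22.2% rose and 21.0% fell in KO CM, and 17.2% rose and 15.4% fell in WT CM. The list counts stand beside these shares. Of 17 tested MRTF-SRF and YAP target genes outside the 37, 2 rose and 13 fell in regular against undifferentiated cells, and 11 rose in each CM group against regular, with 1 fall in KO CM. Among 21 monomer binding, capping, severing and elongation factors, 1 rose and 16 fell in regular against undifferentiated cells. Against regular, 11 rose and 1 fell in KO CM and 9 rose and 1 fell in WT CM. Capg, which caps filament ends, averaged 447 ± 37.3 CPM in KO CM, 324 ± 37.7 CPM in WT CM, 152 ± 11.5 CPM in regular and 411 ± 44.7 CPM in undifferentiated libraries. Of 27 focal adhesion genes, 3 rose and 19 fell in regular against undifferentiated cells. Against regular, 17 rose and 3 fell in KO CM and 15 rose and 2 fell in WT CM. Among 16 genes of the Arp2/3 complex and its activators, 3 rose and 8 fell in regular against undifferentiated cells. In KO CM 7 rose and 3 fell, and in WT CM 5 rose and 2 fell, against regular. The share that fell in either CM group was near that of all genes. Of 22 other myosins, spectrins and membrane linkers, 1 rose and 18 fell in regular against undifferentiated cells. Against regular, 16 rose and 1 fell in KO CM and 15 rose and 1 fell in WT CM. In KO CM against WT CM, 5.86% of all tested genes were higher and 6.65% lower. There 5 of the 17 target genes were higher and 3 lower. Among the 21 monomer binding, capping, severing and elongation factors 3 were higher and 0 lower. Of the 27 focal adhesion genes 2 were higher and 2 lower. Counts were 2 higher and 0 lower of the 16 Arp2/3 genes, and 2 and 1 of the 22 other myosins, spectrins and linkers.

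**Figure D5:**
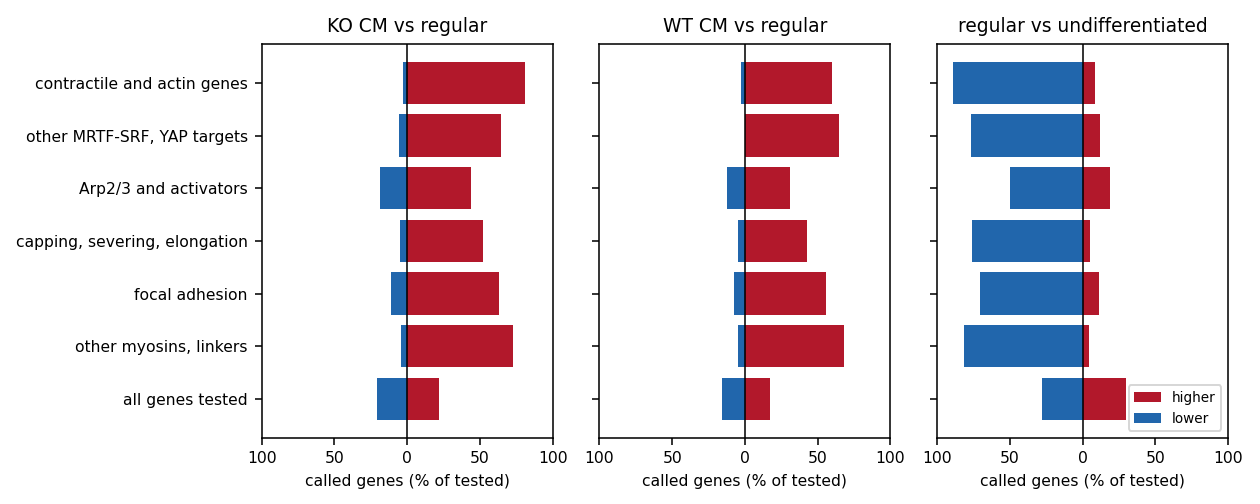
Percentage of tested genes called higher (right) and lower (left) for the 37 genes, 5 lists of related actin pathway genes and all tested genes, in KO CM against regular, WT CM against regular and regular against undifferentiated cells. In KO CM against regular, 81.1% of the 37 genes and 22.2% of all genes are higher.

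Reads near the 3′ end of 9 of the 37 genes may be shared with near-identical copies (Actb, Actg1, Cnn3, Myl6, Myl12a, Myl12b, Tpm3, Cfl1 and Lasp1), and the last 300 bases of Tagln, Vcl, Actn4 and Cfl1 overlap an exon on the opposite strand, so their values are uncertain. Gapdh, a glycolytic enzyme gene outside the 37, was unstable between libraries of a group, at 76, 66.5 and 2446 CPM in KO CM, 3122, 3271 and 114 CPM in WT CM, 2868, 2698 and 2847 CPM in regular and 797, 81.1 and 75.7 CPM in undifferentiated libraries. Whether near copies play a part in this, or in the spread of the 9 genes, was not tested. Among the other 25 genes, 20 rose and 1 fell in KO CM against regular, 15 rose and 1 fell in WT CM against regular, 9 rose in KO CM against WT CM, and 2 rose and 22 fell in regular against undifferentiated cells. Over all tested genes, 22.2% rose and 21.0% fell in KO CM against regular, and 17.2% and 15.4% in WT CM against regular. In KO CM against WT CM 5.86% rose, and in regular against undifferentiated cells 29.6% rose and 28.0% fell. In the authors' deposited table, 26 of the 37 genes were higher and 1 lower in KO CM against regular, 21 higher and 1 lower in WT CM against regular, 12 higher in KO CM against WT CM, and 3 higher and 33 lower in regular against undifferentiated cells. The shares of all genes called by the authors were not counted, so these counts have no background beside them.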

How the data were processed

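Per the file headers, the authors deposited 1 table of raw UMI counts per gene and library beside log2 fold changes and p-values (raw and adjusted) of their own for pairs of groups. Build mm10 and the tools HTSeq, cutadapt and DESeq2 come from the submitters' processing notes, which give no versions. The aligner, the annotation and the use of strand are not given in the sources used here. The authors' log2 fold changes were turned to run first-named over second-named group, and their adjusted p-values were read at 0.05.

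Tests used edgeR 4.0.16 (R 4.3.3), with the filterByExpr filter, TMM scaling and a fit by robust quasi-likelihood over all 12 libraries with 1 coefficient per group (common coefficient of variation 9.38%). Calls used a Benjamini-Hochberg adjusted p under 0.05 over all 9378 genes. CPM values use TMM-scaled sizes, and SEs come from the F statistic. DESeq2 1.42.0 was an alternative. The fit was tested on simulated data. Totals from 987496 to 2589045 UMIs limit the precision of genes with few counts, and no gene in the table has under 6 counts in its highest library.

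Genes shown with every library were those of a fixed rule: Acta2, Actg2, Tagln, Myl9, Mylk, Tpm1, Tpm2, Tnnt2, Flnc, Csrp2, Actb and Actg1, the 5 called genes with the largest change in a comparison, and genes called against the majority; Myh9 was added after its values were seen. The genes and lists were chosen with earlier results of these data known. Near copies are transcripts that BLAST 2.17.0 matched at 95% identity or more over at least 100 of the last 300 bases, in GENCODE M21. Promoters are from RefSeq (GRCm38.p6). Some genes and 1 pathway list are not reported here.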

Additional observations from a re-analysis of the deposited data

How the results depend on the processing

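Of the calls on the 37 genes, 36 of 36 in regular against undifferentiated cells, 25 of 31 in KO CM against regular, 19 of 23 in WT CM against regular and 9 of 14 in KO CM against WT CM held under every alternative tried. Over 222 gene results, 2474 values kept their direction and call, 78 lost the call, 45 gained one and 46 changed sign.

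Among the counts of the 37 genes, and of all calls per comparison, those that moved by over 1.5 times were these. Genes lower in WT CM against regular were 1 or 2 when a replicate was left out, and 2 were lower in KO CM against regular with only these groups in the fit. In KO CM against WT CM, leaving out a replicate gave 9 to 14 genes higher, 0 or 1 lower, and 756 to 1059 calls over all genes. In WT CM against undifferentiated cells 2 genes were higher with DESeq2, with the replicate block and with libraries thinned to the smallest total, and 1 or 2 when a replicate was left out. In KO CM against undifferentiated cells 1 was higher with total counts, and 1 or 2 when a replicate was left out. By direction over all genes, total counts gave 3034 lower and 1504 higher in KO CM against undifferentiated cells (1660 and 2442 with TMM), 3000 lower in WT CM against undifferentiated cells (1942 with TMM) and 357 higher in KO CM against WT CM (550 with TMM). The summed share of the 37 genes moved by more than 1 SD to 1.66% in KO CM and 2.12% in undifferentiated libraries with TMM-scaled sizes. Without 6 genes expressed in every cell type it was 0.813% in KO CM, 0.673% in WT CM, 0.41% in regular and 1.27% in undifferentiated libraries. The cause of these shifts was not tested.

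The sign changes were all in values with no call in either setting, most near 0. The widest was that of Actg1 in KO CM against WT CM, at 0.33 without WT CM replicate 3 and -0.28 with all libraries. With total counts, Csrp2 in WT CM against regular was -0.03, Tpm2, Csrp1, Pdlim5 and Pdlim7 in KO CM against WT CM were -0.03, -0.01, -0.02 and -0.07, and Cnn2 and Tpm4 in KO CM against undifferentiated cells were -0.17 and -0.11. With thinned libraries, Flnc and Csrp2 in WT CM against regular were -0.03 and -0.05, and Tagln, Tpm2 and Pdlim7 in KO CM against WT CM were -0.09, -0.06 and -0.12. Csrp2 in WT CM against regular was -0.0038 with the replicate block and -0.03 with DESeq2, and Pdlim7 in KO CM against WT CM was -0.0018 with no low-count filter. With replicates left out in turn, values in WT CM against regular ran from -0.11 to 0.14 for Csrp2, -0.04 to 0.17 for Flnc, -0.26 to 0.11 for Cfl2 and -0.15 to 0.19 for Csrp1, and in KO CM against regular from -0.37 to 0.04 for Cfl2. In KO CM against WT CM they ran from -0.12 to 0.36 for Tpm2, -0.07 to 0.06 for Vcl, -0.05 to 0.25 for Pdlim5, -0.11 to 0.14 for Pdlim7, -0.27 to 0.28 for Tagln, -0.06 to 0.28 for Csrp1, -0.52 to 0.33 for Actg1, -0.05 to 0.37 for Myl6 and -0.33 to 0.15 for Cfl2. Lima1 in KO CM against undifferentiated cells ran from -0.15 to 0.02.

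Replicate numbers gave no pairing: correlations of same-numbered libraries lay between -0.066 and 0.055. The replicate block gave 30 genes higher in KO CM and 21 in WT CM against regular, and 14 higher in KO CM against WT CM. Depth limits the genes with few counts, such as Tnnt2 with 2 UMIs over the regular libraries.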
